A study of Mus musculus with 12 samples.

Results

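Fibronectin and 8 matricellular glycoproteins of the lung (Fn1, Tnc, Postn, Sparc, Thbs1, Thbs2, Spp1, Cthrc1 and Tgfbi) were followed after paraquat. They were taken by gene symbol, matched 9 of the 20774 genes in the deposited tables, and all 9 were among the 15921 genes that passed the filter on low counts. RNA came from homogenized whole lung of wild-type C57BL/6J mice, whose age is labelled 8 week in every group. PQ mice had received paraquat, a herbicide that injures the lung, dissolved in saline and delivered once into the trachea; control mice had received saline. The dose is not given in the sources used here. The 4 groups of 3 libraries were PQ 1w, control 1w, PQ 4w and control 4w, with the time labels read as weeks. No label says that the 3 replicates of a group were different mice, and a p-value here covers only the scatter of the libraries sequenced, which may be technical. In RNA of whole tissue, fewer cells of a type and less RNA per cell cannot be told apart.

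Fibronectin is the glycoprotein that cells stretch into fibrils through their integrins, and these fibrils form the provisional matrix of a wound before collagen is laid down. Matricellular proteins are secreted into the same matrix but act mostly as signals: they bind cell surface receptors, growth factors, proteases and collagen rather than bearing load. Some are scarce in healthy adult lung and more abundant in development, repair and fibrosis. Fibroblasts, myofibroblasts and macrophages make them there, in part in response to transforming growth factor beta (TGF-beta).

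Levels are given as CPM of the library total (expected counts scaled to the library's depth), and levels of different genes are compared only in the deposited FPKM, which divide by transcript length. Effects are log2 fold changes with a standard error (SE), and a gene is called at an adjusted p under 0.05. Adjusted p-values come from edgeR's quasi-likelihood test with Benjamini-Hochberg adjustment over all 15921 genes. Library totals were 17220978 to 18559809 expected counts, so depth differed little between groups. On the first principal component, which held 51.1% of the variance, the PQ 1w libraries lay at -73.8 to -68.9 and the other 9 at 6.2 to 40.6. On the second, PQ 4w replicate 3 stood apart from the other PQ 4w libraries, at 4.9 against -42.0 and -40.3. The share of all counts on the club cell gene Scgb1a1 was 0.349% to 0.479% in PQ 1w libraries and 1.94% to 2.75% in control 1w libraries.

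The promoters of 6 of the 9 genes were in the RefSeq table of GRCm38.p6, matched by gene ID. They gave 9 windows because Tnc, Postn and Spp1 have a second start. The 150 bases before each start were searched on both strands for 5 short motifs: a TATA box (TATANAA), AP-1 (TGANTCA), SMAD (CAGAC), TEAD (GGAATG) and RUNX (TGTGGT). The SMAD letters, bound by effectors of TGF-beta, stood before 4 of the 6 outermost starts, those of Sparc, Thbs2, Spp1 and Tgfbi, and in 27.7% of the 32851 windows of the genome table. The other motifs stood in 6.17% (TATA box), 4.24% (AP-1), 7.59% (TEAD) and 8.4% (RUNX) of those windows. The windows below are those of Spp1 and Thbs2, which had the highest and the third highest effect at 1w and more than 1 SMAD match, of Tnc, which had the second highest effect, and of Postn, which had no called effect of PQ. Tnc and Postn were alike in having none of the 5 motifs before the outermost start and a TATA box before the inner start; the outer window is shown for Tnc and the inner one for Postn. Capitals mark the matches, and the last base is the one before the start.
Spp1, chr5:104434961-104435110, plus strand: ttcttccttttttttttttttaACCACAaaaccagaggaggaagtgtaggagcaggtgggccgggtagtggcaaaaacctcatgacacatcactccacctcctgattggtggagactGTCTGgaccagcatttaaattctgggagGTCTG
Thbs2, chr17:14694263-14694412, minus strand: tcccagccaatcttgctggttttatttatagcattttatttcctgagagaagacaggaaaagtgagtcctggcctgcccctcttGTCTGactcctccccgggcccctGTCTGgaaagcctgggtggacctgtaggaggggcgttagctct
Tnc, outermost start, chr4:64047016-64047165, minus strand: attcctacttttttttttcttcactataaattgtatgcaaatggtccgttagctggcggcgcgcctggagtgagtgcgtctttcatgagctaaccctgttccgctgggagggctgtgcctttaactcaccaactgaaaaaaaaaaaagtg
Postn, inner start, chr3:54360957-54361106, plus strand: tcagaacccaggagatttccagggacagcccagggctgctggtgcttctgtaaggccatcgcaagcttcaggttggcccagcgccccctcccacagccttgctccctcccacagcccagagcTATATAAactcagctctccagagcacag
In Spp1 the capitals are a RUNX match 128 bases before the start and SMAD matches 33 and 5 bases before it. In Thbs2 they are SMAD matches 66 and 43 bases before the start, and in Postn a TATA box 28 bases before the inner start. At its inner start Tnc had a TATA box 29 bases before and a SMAD match 70 bases before. A match is a stretch of letters and not a measured site. Among genes with a window that were called higher at 1w, only Tnc lacked the SMAD letters before its outermost start. Tnc had them before its inner start. The part of these letters in the rise was not tested.

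Fibronectin, encoded by Fn1 (gene ID 14268, chromosome 1, 71585473 to 71653280, minus strand, GRCm38), had 3981, 5042 and 4247 CPM in PQ 1w lungs and 586, 453 and 794 CPM in control 1w lungs. Every PQ library lay above every control library. The effect at 1w was 2.85 ± 0.19 (log2 ± SE), a 7.19-fold rise, with an adjusted p of 3.94e-07. At 4w Fn1 had 617, 674 and 749 CPM in PQ lungs and 361, 322 and 428 CPM in control lungs, again with no overlap. The effect at 4w was 0.80 ± 0.18, or 1.75-fold, with an adjusted p of 0.0144. It did not pass without control 4w replicate 1 (adjusted p = 0.0593) or without control 4w replicate 2 (adjusted p = 0.056), and over all 21 alternatives the adjusted p ran from 8.97e-05 to 0.0593. Apol7d lies antisense to Fn1 in the annotation and had at most 3 counts in any library.

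The tables also hold a transcript length for each gene and library, an average over its annotated transcripts weighted by their estimated use. Fibronectin messages are spliced into forms that keep or skip whole domains, and the forms that keep the extra domains are known from wounds and fibrosis. For Fn1 the tables list 7 transcripts. The length was 7953.67, 7949.47 and 7951.17 bases in PQ 1w lungs and 7906.52, 7907.46 and 7901.88 bases in control 1w lungs. Each PQ 1w library had a longer average than each control 1w library, by 46.15 bases in the means, but 3 against 3 libraries cannot go below 0.1 in an exact two-sided permutation test, and the p was 0.1 (adjusted p = 0.333 over 10 such tests). Among the 4813 tested genes whose length varies, 16.7% had lengths that did not overlap at 1w, in either direction, and 11.3% at 4w. At 4w the lengths overlapped, at 7901.07, 7923.23 and 7912.31 bases in PQ lungs and 7890.70, 7900.90 and 7923.83 bases in control lungs (difference 7.06 bases, exact permutation p = 0.7). Which transcripts differed is not in the tables. Of the other 4 genes with a varying length, Postn differed at 1w without overlap, by 4.53 bases, and Sparc by 0.06 bases, while Thbs1 and Spp1 overlapped.

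**Figure D1:**
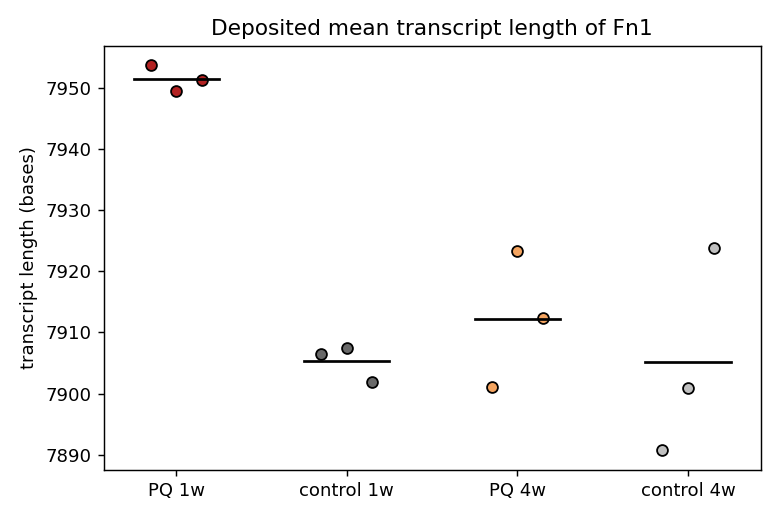
Average transcript length of Fn1 in bases, per library, for PQ 1w, control 1w, PQ 4w and control 4w, with the group mean as a bar; the axis does not start at 0. The 3 PQ 1w libraries lie between 7949.47 and 7953.67 bases, above all 9 others, of which the highest is at 7923.83 bases.

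Tenascin-C, encoded by Tnc (ID 21923, chromosome 4, 63959785 to 64047015, minus strand), is a large glycoprotein that loosens the hold of cells on fibronectin. It had 355, 529 and 566 CPM in PQ 1w lungs and 38.3, 37.5 and 35.2 CPM in control 1w lungs. The groups were far apart, and the 3 control libraries were within a few CPM of each other. The effect was 3.69 ± 0.19, a 13-fold rise, with an adjusted p of 5.85e-08. At 4w the values were 26.3, 41 and 32.9 CPM in PQ lungs and 19.2, 16.9 and 17.3 CPM in control lungs. These did not overlap, and the effect was 0.84 ± 0.18, or 1.79-fold, with an adjusted p of 0.0139 (7.19e-05 to 0.0489 over the 21 alternatives).

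Periostin (Postn, ID 50706, chromosome 3, 54359267 to 54391041, plus strand) and the TGF-beta induced protein (Tgfbi, ID 21810, chromosome 13, 56609586 to 56639359, plus strand) share the fasciclin fold. Periostin binds collagen and helps its crosslinking, and Tgfbi links collagen to integrins. Postn had 392, 424 and 472 CPM in PQ 1w lungs and 392, 380 and 408 CPM in control 1w lungs. The groups overlapped, and the effect was 0.11 ± 0.10 with an adjusted p of 0.351, so 2 SE around it ran from -0.08 to 0.31. At 4w Postn had 297, 283 and 347 CPM in PQ lungs and 301, 275 and 335 CPM in control lungs, an effect of -0.05 ± 0.10 (adjusted p = 0.785, 2 SE from -0.24 to 0.14) whose sign changed with the scaling and with single libraries left out. Periostin was thus the only 1 of the 9 with no called effect of PQ at 1w, and its interval excludes a 2-fold change at either time.

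Tgfbi had 234, 275 and 250 CPM in PQ 1w lungs and 126, 78.4 and 143 CPM in control 1w lungs. The groups did not overlap, with the control libraries the more spread of the 2 groups, and the effect was 1.12 ± 0.17, or 2.17-fold (adjusted p = 0.000204). At 4w it had 101, 102 and 112 CPM in PQ lungs and 87.7, 96 and 72.2 CPM in control lungs. The values still did not overlap, but the effect of 0.23 ± 0.17 did not pass (adjusted p = 0.417).

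Sparc and Cthrc1 are tied to collagen. SPARC (Sparc, ID 20692, chromosome 11, 55394159 to 55420080, minus strand) binds collagen outside the cell and is needed for its orderly deposition, and Cthrc1 (ID 68588, chromosome 15, 39076932 to 39087121, plus strand) is a small secreted protein with a short collagen-like repeat, made by activated fibroblasts. Sparc had 5837, 5456 and 5468 CPM in PQ 1w lungs and 2349, 2855 and 2599 CPM in control 1w lungs. The PQ libraries were tightly grouped and well above the controls, an effect of 1.09 ± 0.14 or 2.13-fold (adjusted p = 4.76e-05). At 4w Sparc had 1514, 2077 and 2191 CPM in PQ lungs and 2047, 2066 and 1718 CPM in control lungs. The groups overlapped, with PQ 4w replicate 1 the lowest of the 6, and the effect was -0.08 ± 0.14 (adjusted p = 0.741, 2 SE from -0.35 to 0.19); without that library it was 0.08.

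Cthrc1 had 10.9, 31.3 and 27.4 CPM in PQ 1w lungs and 3.03, 3.27 and 2.96 CPM in control 1w lungs. Replicate 1 of PQ 1w was well below the other PQ libraries and still above each control. The effect was 2.89 ± 0.31, or 7.42-fold (adjusted p = 1.43e-05). At 4w it had 3.95, 3.21 and 3.03 CPM in PQ lungs and 2.59, 3.08 and 2.41 CPM in control lungs, which overlapped (0.26 ± 0.34, adjusted p = 0.662). Outside PQ 1w these levels rest on 43 to 68 counts a library.

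The thrombospondins of this set were Thbs1 (ID 21825, chromosome 2, 118111876 to 118127133, plus strand), which can release TGF-beta from its latent complex and is stored in platelets, and Thbs2 (ID 21826, chromosome 17, 14665500 to 14694262, minus strand), which like Thbs1 restrains new vessel growth. Thbs1 had 623, 611 and 583 CPM in PQ 1w lungs and 489, 259 and 339 CPM in control 1w lungs. The groups did not overlap, but the controls varied widely, and the effect was the smallest of the 8 called, at 0.73 ± 0.20 or 1.66-fold (adjusted p = 0.00891). At 4w Thbs1 had 107, 122 and 122 CPM in PQ lungs and 188, 156 and 118 CPM in control lungs. These overlapped, and the effect of -0.47 ± 0.20 did not pass (adjusted p = 0.149, 2 SE from -0.87 to -0.07).

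Thbs2 had 23.8, 38.8 and 39.7 CPM in PQ 1w lungs and 3.31, 2.27 and 5.48 CPM in control 1w lungs. All PQ libraries were several times above the highest control, and the effect was 3.19 ± 0.27, or 9.15-fold (adjusted p = 1.91e-06); on the log2(FPKM + 1) scale, which understates low genes, it was 2.04. At 4w Thbs2 had 4.76, 4.7 and 4.18 CPM in PQ lungs and 2.65, 2.91 and 2.92 CPM in control lungs. The values did not overlap, but the effect of 0.61 ± 0.29 did not pass (adjusted p = 0.185), on 41 to 100 counts a library outside PQ 1w. Of 5 platelet and megakaryocyte markers, 1 (Pf4, 1.39) was called higher and 4 lower at 1w, beside 48.8% of all genes called in either direction. Their summed level overlapped, at 30.3 to 50.6 CPM in PQ 1w lungs and 49.1 to 50.2 CPM in control 1w lungs. The part of these markers in the thrombospondin values was not tested.

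Osteopontin, encoded by Spp1 (ID 20750, chromosome 5, 104435111 to 104441053, plus strand), is a phosphorylated ligand of integrins and of Cd44, known as a product of macrophages in scarring lung. It had 930, 1946 and 1547 CPM in PQ 1w lungs and 65.8, 75.9 and 91.7 CPM in control 1w lungs. Its effect was the highest of the 9 at 1w, at 4.23 ± 0.27 or 18.8-fold (adjusted p = 2.85e-07), although the PQ 1w libraries were spread from 930 to 1946 CPM. At 4w it had 289, 168 and 197 CPM in PQ lungs and 129, 156 and 142 CPM in control lungs. No library overlapped, but with 289 CPM in replicate 1 the PQ group was wide, and the effect of 0.54 ± 0.24 did not pass (adjusted p = 0.163). The annotation holds a gene on the same strand within Spp1, Gm42793, which the tables do not list.

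**Figure D2:**
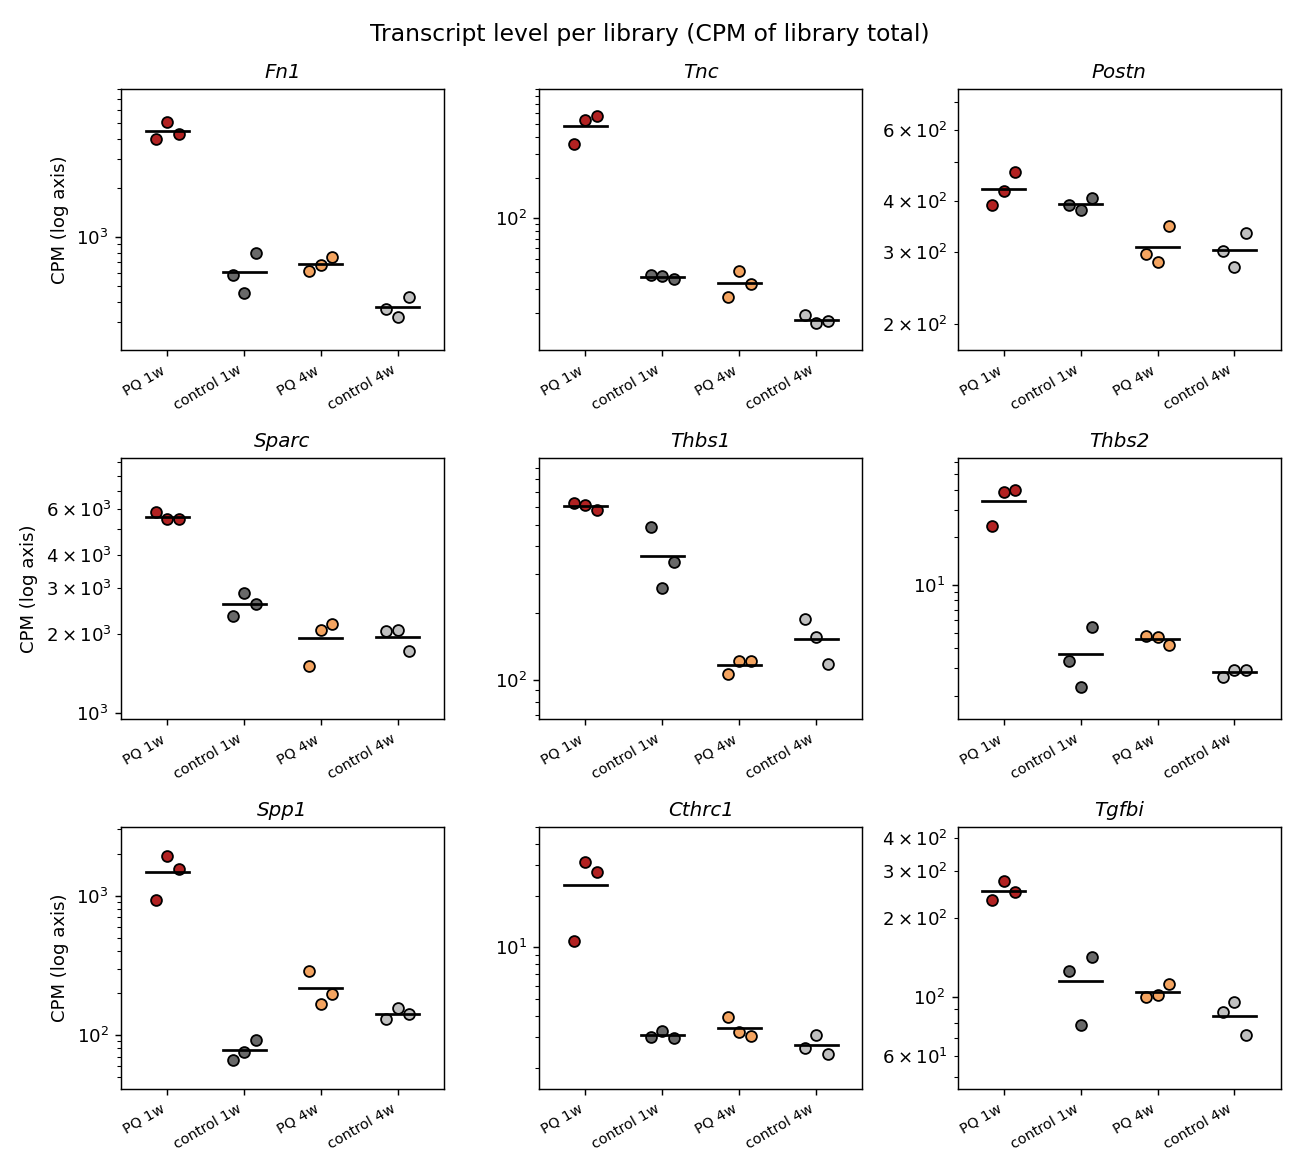
CPM of each of the 9 genes per library on a log axis, 1 panel a gene, for PQ 1w, control 1w, PQ 4w and control 4w, with the group mean as a bar. In PQ 1w lungs 8 genes lie wholly above their controls, and Postn overlaps, at 392 to 472 CPM in PQ 1w and 380 to 408 CPM in control 1w.

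At 1w, then, 8 of the 9 genes were called higher and 0 lower; of all genes tested, 25.9% were called higher and 48.8% were called in either direction. Of the 9, 7 were called higher with an estimate of at least 2-fold, against 7.23% of all genes. A 2-fold rise was not itself tested, and for Sparc and Tgfbi 2 SE below the estimate was log2 0.82 and 0.78. Values of 8 did not overlap with PQ higher, against 31.5% of all genes. The median log2 effect of the 9 was 2.85, and that of all tested genes 0.005. The 8 calls held in all 21 alternatives.

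At 4w, 2 of the 9 (Tnc and Fn1) were called higher and 0 lower, beside 5.75% of all genes called higher and 12.1% called at all. Another 3 (Thbs2, Spp1 and Tgfbi) were higher in every PQ 4w library than in every control 4w library without passing the test, which makes 5 of 9 with values that did not overlap; 20.9% of all genes were like this. The median effect of the 9 was 0.26, beside 0.004 for all tested genes. Without PQ 4w replicate 3, the library that stood apart, the count called was again 2.

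The difference of the effects, at 4w minus at 1w, was tested as an interaction. It was called for 8 of the 9, all lower at 4w; 17.9% of all genes were called lower and 32% were called at all. The greatest differences were those of Spp1 (-3.69), Tnc (-2.86), Cthrc1 (-2.63), Thbs2 (-2.58) and Fn1 (-2.04). Sparc, Thbs1 and Tgfbi differed by -1.17, -1.20 and -0.89. For Postn the difference was -0.16 (adjusted p = 0.387).

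**Figure D3:**
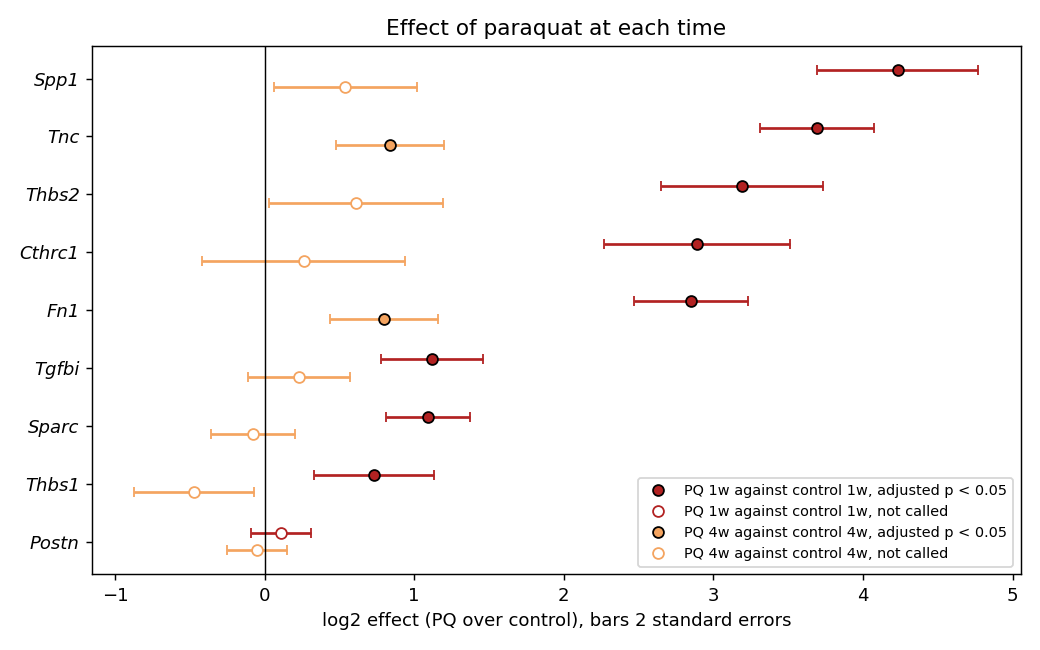
Log2 effect of PQ against control with 2 SE on either side, for each of the 9 genes at 1w and at 4w. The 1w effects run from 0.11 for Postn to 4.23 for Spp1, and the 4w effects from -0.47 for Thbs1 to 0.84 for Tnc.

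The later time was also set against the earlier one within each treatment; these comparisons use the same libraries as those above. In PQ lungs all 9 genes were lower at 4w than at 1w and were called, against 27.8% of all genes called lower and 54.6% called at all, and none of the 9 overlapped between the times, against 27% of all genes with every PQ 4w library below every PQ 1w library. The log2 changes were -3.92 for Tnc, -2.97 for Thbs2, -2.83 for Spp1 and for Cthrc1, -2.77 for Fn1, -2.44 for Thbs1, -1.60 for Sparc, -1.34 for Tgfbi and -0.54 for Postn. Periostin passed here with an adjusted p of 0.000548.

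Saline lungs differed between the times as well. At 4w against 1w in control lungs, 4 of the 9 were called lower and 1 higher, beside 4.2% of all genes called lower and 5.9% called higher. Thbs1 fell the most, by 1.24 on the log2 scale (adjusted p = 0.0111), and it passed in all 21 alternatives. Tnc had a log2 change of -1.06 (adjusted p = 0.0145), which did not pass without control 4w replicate 2 (adjusted p = 0.0581). Fn1 changed by -0.73 (adjusted p = 0.0308) and Postn by -0.38 (adjusted p = 0.0343). Neither passed without any single one of 5 libraries (control 1w replicates 1 and 3 and the 3 control 4w libraries), where the adjusted p was 0.0571 to 0.116 for Fn1 and 0.0525 to 0.123 for Postn. Spp1 went up in these controls, by 0.86 (adjusted p = 0.0451), and lost its call without any of the 6 control libraries or without PQ 1w replicate 3 (adjusted p from 0.0645 to 0.143). Of the genes not called, Tgfbi (-0.45, adjusted p = 0.11) passed without control 1w replicate 2 (adjusted p = 0.0142), and Sparc (-0.43, adjusted p = 0.0635) passed without PQ 4w replicate 1 or without PQ 4w replicate 3 (adjusted p from 0.0226 to 0.0359).

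Added together, the 9 genes made 1.24%, 1.44% and 1.32% of all counts in PQ 1w lungs and 0.405%, 0.414% and 0.442% in control 1w lungs. At 4w they made 0.296%, 0.348% and 0.376% in PQ lungs and 0.314%, 0.309% and 0.284% in control lungs, which overlapped. Sparc and Fn1 held 72% to 79.8% of these sums in every library. Within PQ 1w, replicate 1 was the lowest library for 7 of the 9 genes and the highest for Sparc and Thbs1.

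Per transcript length, Sparc was the most abundant of the 9 in every group, at 2109 ± 81.3 FPKM in PQ 1w lungs and 981 ± 94.9 FPKM in control 1w lungs (SD, n = 3 each). In PQ 1w lungs Spp1 came next at 1039 ± 361 FPKM, then Fn1 at 549 ± 68.9 and Postn at 136 ± 12.8. Thbs1 (102 ± 3.42 FPKM) and Tgfbi (94.2 ± 7.8 FPKM) overlapped there, and Tnc followed at 67.3 ± 15.7, Cthrc1 at 20.2 ± 9.43 and Thbs2 at 5.69 ± 1.49 FPKM. In control 1w lungs Postn was next after Sparc, at 125 ± 4.67 FPKM, and each neighbouring pair of Fn1 (76.2 ± 21.5), Thbs1 (61.1 ± 19.7), Spp1 (54.8 ± 9.19) and Tgfbi (43.1 ± 12.5) overlapped. Osteopontin thus stood second in PQ 1w lungs, while Sparc, Postn, Fn1 and Thbs1 had higher means than it in control 1w lungs.

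At 4w the order had Sparc first in both groups, at 726 ± 137 FPKM in PQ lungs and 732 ± 73.6 FPKM in control lungs, and Spp1 second, at 153 ± 44.5 FPKM in PQ lungs and 100 ± 9.21 FPKM in control lungs. Postn followed, at 98 ± 10.8 FPKM in PQ lungs, where it overlapped with Fn1 (84.7 ± 8.24 FPKM) and not with Spp1, and at 96.3 ± 9.41 FPKM in control lungs, where it overlapped with Spp1. Tgfbi stood above Thbs1 in PQ 4w lungs, at 39 ± 2.36 and 19.7 ± 1.5 FPKM, and overlapped with it in control 4w lungs, at 31.7 ± 4.49 and 25.9 ± 5.85 FPKM. Thbs2 was the lowest in every group.

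**Figure D4:**
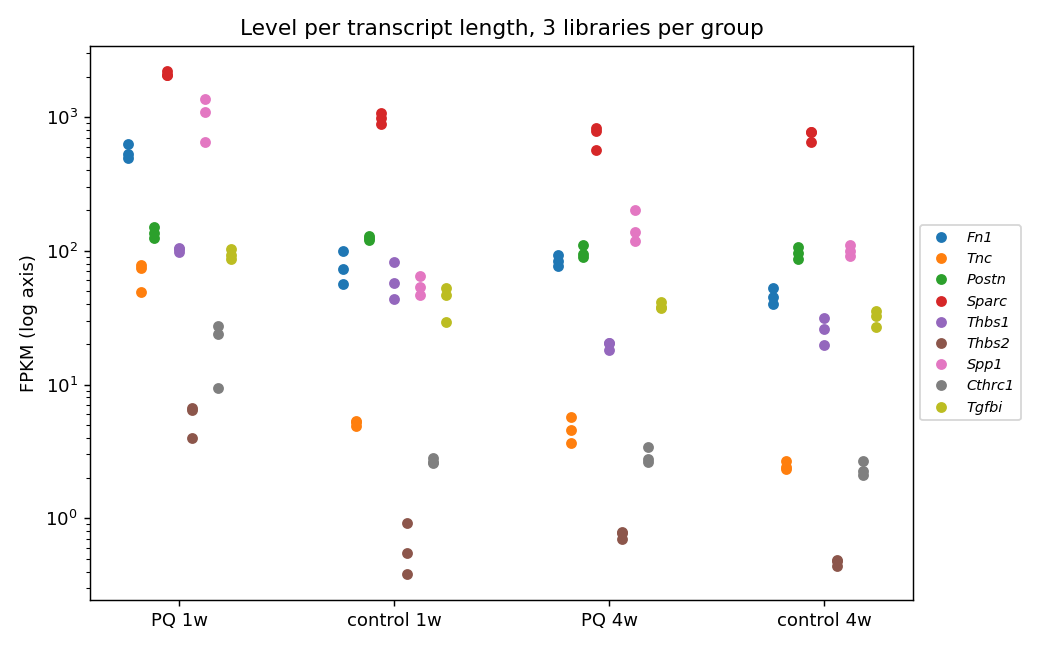
Deposited FPKM of each gene on a log axis in PQ 1w, control 1w, PQ 4w and control 4w lungs, with 1 point for each of the 3 libraries. Sparc is highest and Thbs2 lowest in each group. By group mean, which is not drawn, Spp1 is second in PQ 1w, PQ 4w and control 4w lungs but not in control 1w lungs.

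The profiles of the 9 genes over the 12 libraries were set against each other by the root mean square difference of log2(CPM + 0.5), after subtracting each gene's mean over the 6 controls; a smaller value is more alike. The closest pair was Fn1 and Thbs2 (0.248), followed by Sparc and Tgfbi (0.313) and by Thbs2 and Cthrc1 (0.434). The farthest pair was Tnc and Postn (1.977), and the related Thbs1 and Thbs2 differed by 1.261. The same measure ranked 12030 other genes with a mean of at least 5 CPM. Genes with Gm or Rik names and immunoglobulin and T cell receptor segments were left out. The nearest to Fn1 were Capn6 (0.320), Knstrn (0.330) and Spag5 (0.333), to Tnc Adamts12 (0.343), Adam12 (0.502) and Cd109 (0.521), and to Thbs2 P4ha3 (0.297), Timp1 (0.365) and Knstrn (0.382). P4ha3 encodes a subunit of a collagen prolyl hydroxylase, and Timp1 an inhibitor of matrix proteases. Cthrc1 was nearest to Col1a1 (0.316), which encodes a chain of type I collagen, Nrep (0.320) and Ccn4 (0.343), and Sparc to Ccn2 (0.118), Emilin1 (0.125) and Tmem151a (0.133). Spp1 was nearest to the lysosomal protease gene Ctsk (0.480), Fst (0.485) and Rasl10b (0.542), and Thbs1 to Tnfrsf12a (0.314), Hbegf (0.345) and Fras1 (0.390). Tgfbi was nearest to Lilrb4a (0.176), Uck2 (0.185) and Hmmr (0.190), and Postn to Adamtsl3 (0.085), Erc1 (0.093) and Galnt10 (0.097).

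Relatives of these genes moved in both directions. Of the other thrombospondins, Thbs4 was called higher at both times, at 10.2 ± 6.76 CPM in PQ 1w lungs and 0.295 ± 0.128 CPM in control 1w lungs (log2 5.07, adjusted p = 8.63e-05) and at 2.59 CPM in PQ 4w lungs and 0.339 CPM in control 4w lungs (log2 2.84, adjusted p = 0.0272). The difference of its effects between times did not pass (-2.23, adjusted p = 0.164), and its control levels rest on a few counts. Thbs3 was called lower at 1w (-0.51, adjusted p = 0.0291), and Comp, at under 1 CPM, was not called (0.88, adjusted p = 0.112). Of the other tenascins, Tnn rose at 1w (1.83, adjusted p = 9.58e-05) and Tnxb, the tenascin of loose connective tissue, fell (-0.73, adjusted p = 0.00586), while Tnr was called lower at 4w (-1.77, adjusted p = 0.0327) at a level near 0.

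In the SPARC family, 3 of the 5 tested of 7 rose at 1w and 0 fell. Of all genes, 25.9% were called higher at 1w and 48.8% in either direction. Fstl1, a secreted follistatin-like protein, had a log2 effect of 2.16 (adjusted p = 4.31e-08) at 1w and 0.06 at 4w. Sparcl1, the closest relative of Sparc, was higher at both times, by 0.89 (adjusted p = 1.85e-05) at 1w and by 0.70 (adjusted p = 0.00182) at 4w. Its difference between times was -0.19 (adjusted p = 0.331), while that of Sparc was called. In the CCN family, secreted modulators of integrin and growth factor signals, 3 of 5 tested of 6 rose at 1w and 1 fell. The same shares of all genes stand beside these counts. Ccn4 rose by 2.98 (adjusted p = 8.77e-07), Ccn2 by 1.22 (adjusted p = 2.58e-05) and Ccn1 by 1.15 (adjusted p = 0.0018), and Ccn3 had an effect of -0.81 (adjusted p = 0.00823). Ccn5 had 0.68 (adjusted p = 0.0522) at 1w and was called lower at 4w (-1.13, adjusted p = 0.0205), and Ccn6 was too low to test.

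**Figure D5:**
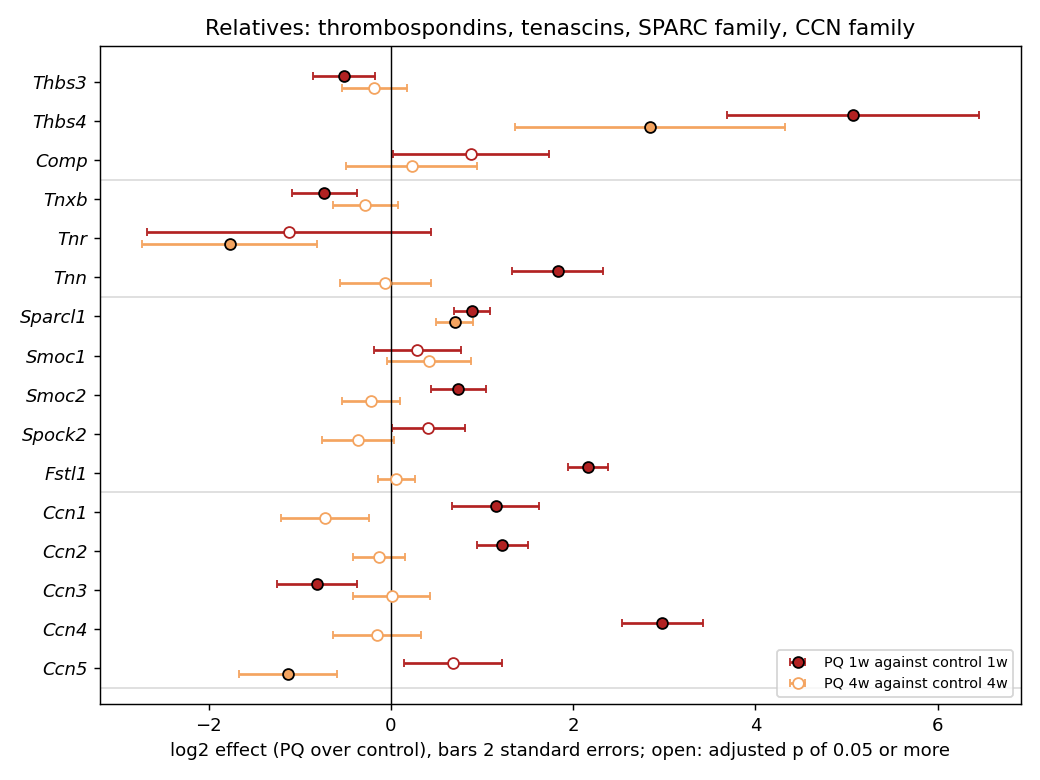
Log2 effects of PQ at 1w and at 4w, each against its own control, with 2 SE on either side, for tested relatives of the 9 genes. Thbs4 and Sparcl1 are called higher at both times, while Fstl1 and Ccn4 lie near 0 at 4w (0.06 and -0.15).

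Of 20 receptors for these proteins, 11 were called higher, 3 lower and 6 were not called at 1w, beside 25.9% of all genes called higher. Itga5, the integrin subunit that partners Itgb1 in the main fibronectin receptor, rose by 1.19 (adjusted p = 2.67e-07), and Sdc1, a heparan sulfate proteoglycan of the cell surface, by 0.69 (adjusted p = 3.28e-05). The 3 that fell were Itga4, Itga8 and the thrombospondin receptor Cd36. At 4w 1 of the 20 was higher and 2 were lower, a share near the 5.75% of all genes called higher and the 12.1% called at all. Stab2, a scavenger receptor known to bind periostin, was higher (1.21, adjusted p = 0.00361), and Itgb3 was lower (-0.77, adjusted p = 0.0017).

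Of 12 genes of TGF-beta signalling, 8 were called higher and 1 (Smad7, an inhibitor of the pathway, -0.70) lower at 1w. Of all genes, 25.9% were called higher and 48.8% in either direction at that time. At 4w 4 of the 12 were called higher and 0 lower, beside 5.75% of all genes called higher and 12.1% called at all. Ltbp2, an elastic fibre protein that bears the name of the latent TGF-beta binding protein family, had 1.87 (adjusted p = 2.79e-07) at 1w. At 4w Ltbp2 had 0.60 (adjusted p = 0.00779). The list had a median of 0.36 at 1w and 0.04 at 4w, beside 0.005 and 0.004 for all tested genes.

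Some markers of cells known to make these proteins were higher at 1w, and their part in the results was not tested. Of all genes, 25.9% were called higher at 1w and 5.75% at 4w. The summed level of 6 fibroblast markers was 10440 to 11868 CPM in PQ 1w lungs and 2728 to 2846 CPM in control 1w lungs. Most of it was collagen, with PQ 1w means of 3992 CPM for Col1a1, 3047 for Col1a2 and 3550 for Col3a1. These collagen genes and Lum (12 CPM in PQ 1w lungs) were the 4 called higher. Dcn was not called (0.40, adjusted p = 0.0974), and Pdgfra was called lower (-0.45). At 4w the sum of the 6 was 2369 to 2608 CPM in PQ lungs and 1997 to 2192 CPM in control lungs, with 1, Col3a1, called higher. For 8 macrophage markers the sum was 1035 to 1241 CPM in PQ 1w lungs and 420 to 459 CPM in control 1w lungs, and 662 to 776 CPM in PQ 4w lungs and 331 to 386 CPM in control 4w lungs, with 6 of 8 called higher at each time. Of 5 markers of lipid-associated macrophages, 3 (Gpnmb, Trem2 and Arg1) were called higher at both times, and Fabp5 and Cd9 at neither. Log2 effects of those 3 were 2.70, 3.62 and 5.26 at 1w and 2.06, 2.25 and 2.08 at 4w. Spp1 was called higher at 1w alone (0.54 at 4w, adjusted p = 0.163). Of 4 alveolar macrophage markers, Marco (3.48) and Chil3 (2.14) were called higher at 1w, and Siglecf (-0.21) and Ear2 (0.04) were not called. The sum of the 4 was 1249 to 1728 CPM in PQ 1w lungs and 339 to 349 CPM in control 1w lungs. Most of it was Chil3, with means of 1292 CPM in PQ 1w lungs and 291 CPM in control 1w lungs. At 4w 0 of these 4 were higher and 1, Marco, was lower (-3.11, adjusted p = 0.0021), and the sum was 265 to 441 CPM in PQ 4w lungs and 308 to 336 CPM in control 4w lungs.

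Of 4 markers of myofibroblasts and smooth muscle, Acta2 (1.44) and Tagln (0.75) were called higher at 1w. Myh11 (-0.13) and Cnn1 (-0.60) were not called. The sum of the 4 was 852 to 888 CPM in PQ 1w lungs and 441 to 555 CPM in control 1w lungs. At 4w Tagln was called lower (-0.45, adjusted p = 0.045). The sums overlapped there, at 408 to 676 CPM in PQ 4w lungs and 544 to 699 CPM in control 4w lungs. Of 4 mesothelial markers, only Msln was called at 1w (2.14, with 446 CPM in PQ 1w lungs and 101 CPM in control 1w lungs on average), and their sum was 536 to 572 CPM in PQ 1w lungs and 193 to 227 CPM in control 1w lungs. All 4 endothelial markers were lower at both times, at 1758 to 2074 CPM in PQ 1w lungs and 2943 to 3331 CPM in control 1w lungs, and at 1817 to 2392 CPM in PQ 4w lungs and 3036 to 3214 CPM in control 4w lungs. Markers of alveolar type 2 cells (4 of 4), alveolar type 1 cells (3 of 4), airway cells (2 of 3) and T and B cells (2 of 2) were called lower at 1w. Of all genes, 48.8% were called in either direction at 1w and 12.1% at 4w. Defining markers of lung epithelium and endothelium were present in every library, and 0 markers of these lists were at 0 in any library.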

How the data were processed

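Sequencing of whole-lung RNA used a BGISEQ 500 (labels' protocols). The submitters' processing notes name HISAT, RSEM 1.2.12 and the mm10 build. Not given in the sources used here are the HISAT version, the strandedness and the annotation, so reads of antisense partners cannot be separated. The deposited tables hold, per gene, the authors' RSEM expected counts, not scaled to depth, their FPKM (scaled to length and library) and other values (an average transcript length in bases), per the file headers. Expected counts were rounded (69.7% were whole within 1e-06), and genes absent from a library's table were set to 0 there. Spreadsheet dates in 27 symbols were replaced from gene IDs.

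The test was edgeR 4.0.16 glmQLFit and glmQLFTest on all 12 libraries with 4 group means, TMM factors (0.974 to 1.057) and filterByExpr (minimum count 10, minimum total 15), with Benjamini-Hochberg adjustment over 15921 genes. SE is the absolute log2 effect divided by the square root of F. The test was also run on counts simulated from its own model, with changes planted in PQ 1w alone and in far fewer genes than were called here. The outcome is not given, and nothing is drawn from it. No library repeated another: chi-square per degree of freedom within groups was 7.41 to 34.4. Alternatives used DESeq2 1.42.0 and limma 3.58.1. R was 4.3.3; Python 3.11.15 ran pandas 2.3.3, numpy 2.4.6, scipy 1.17.1 and matplotlib 3.10.9. Promoters came from RefSeq (GRCm38.p6), and gene coordinates from the NCBI gene table of GRCm38 by gene ID.

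The members, lists and tests were chosen with earlier results of these data known. Named relatives are the 2 with the smallest p in a list at either time, the closest family members (Thbs3, Thbs4, Comp, Tnxb, Sparcl1 and the CCN genes) and the 3 genes most alike in profile; other genes were named after their values were seen. A result for 1 gene that this rule names is not reported here.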

Additional observations from a re-analysis of the deposited data

Results flagged for a closer look

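The effect of PQ differed between the times for 8 of the 9 genes, by the interaction in edgeR's quasi-likelihood test with Benjamini-Hochberg adjustment. Each value is the log2 effect at 4w minus that at 1w. It was -3.69 for Spp1 (adjusted p = 3.73e-05), -2.86 for Tnc (3e-05), -2.63 for Cthrc1 (0.00133), -2.58 for Thbs2 (0.000552) and -2.04 for Fn1 (0.000192). It was -1.20 for Thbs1 (0.0071), -1.17 for Sparc (0.000917) and -0.89 for Tgfbi (0.0149). The interaction was called lower for 17.9% of all genes and in either direction for 32%.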

How the results depend on the processing

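At 1w 8 of the 9 genes, for the difference of effects 8 and for PQ 4w against PQ 1w 9 passed under every alternative run. Before any alternative, 48.8%, 32% and 54.6% of all genes were called in these comparisons, in that order. At 4w the count of 2 became 1 to 2 when single libraries were left out, and the count of all genes called, 1932, became 641 to 2104, and 746 when only the groups compared were fitted. In control 4w against control 1w, 5 of the 9 passed; this became 1 to 6 without single libraries and 2 with limma on log2(FPKM + 1) without a filter, and the 1609 genes called became 122 to 2570 and 441. It became 7 with the DESeq2 Wald test (2356 genes), where Sparc and Tgfbi passed too, and 6 with only the groups compared (2247 genes). Postn at 4w changed sign, to 0.02 with library totals alone, 0.03 with limma on each FPKM scale, 0.01 without PQ 4w replicate 2 and 0.04 without control 4w replicate 3. With single libraries left out, Postn at 4w ran from -0.14 to 0.04, Sparc at 4w from -0.18 to 0.08 (positive only without PQ 4w replicate 1), and Thbs2 in the controls from -0.65 to 0.00 (highest without control 1w replicate 3). The cause was not tested.

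The labels do not say whether replicate numbers pair the libraries, and 3 libraries a group are too few to decide it. Deviations of same-numbered libraries correlated at -0.350 to -0.074 at 1w and -0.179 to 0.152 at 4w. Of the 12 libraries, 2 correlated best with their own number in the other treatment. With the replicate block, 8, 2, 8, 9 and 4 of the 9 genes passed at 1w, at 4w, for the difference, for PQ over time and for controls over time, the last having lost Spp1 (adjusted p = 0.0603), and 7636 and 1646 genes were called at 1w and at 4w. Of the 9 genes, Cthrc1 and Thbs2 rest on the fewest counts.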

Other observations

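Proteases and assembly enzymes that cut or crosslink these proteins moved as follows. Of 12 listed, 8 were called higher and 1 lower at 1w, beside 25.9% of all genes called higher and 48.8% called at all. At 4w 5 were called higher and 2 lower, beside 5.75% of all genes called higher and 12.1% called at all. Mmp14, a membrane protease that activates Mmp2, had a log2 effect of 2.24 (adjusted p = 1.07e-08) at 1w and 0.54 (adjusted p = 0.0021) at 4w, and Mmp2 had 1.70 (adjusted p = 7.11e-07) and 0.95 (adjusted p = 0.00123). Mmp12, the macrophage elastase, had 1.18 at 1w (adjusted p = 0.0119) and 2.79 at 4w (adjusted p = 0.00105). Lox, which crosslinks collagen and elastin, rose by 1.71 (adjusted p = 3.05e-06) at 1w and had -0.01 at 4w. Adjusted p-values are from edgeR's quasi-likelihood test.

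The 6 fibulins, glycoproteins of elastic fibres and basement membrane, split at 1w into 3 called higher, 2 lower and 1 not called. Of all genes, 25.9% were called higher at 1w and 48.8% in either direction. Fbln2 rose by 2.33 (adjusted p = 1.28e-06) and Efemp2 by 0.99 (adjusted p = 2.11e-06), while Efemp1 had -1.05 (adjusted p = 5.22e-06) at 1w and -0.39 (adjusted p = 0.0239) at 4w. Fbln7 was called higher at 4w (1.71, adjusted p = 0.0333) at a low level, 1.44 CPM in PQ 4w lungs and 0.414 CPM in control 4w lungs.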
